A study of Rattus norvegicus with 12 samples.

Results

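The natriuretic peptide genes Nppa (ENSRNOG00000008176) and Nppb (ENSRNOG00000008141) were followed in rat heart muscle cells with and without phenylephrine, in total RNA and in RNA that came down with the RNA-binding protein Cpeb4. They are 2 of 32883 genes in the deposited table of counts, were taken by their Ensembl identifiers, and both passed the filter on low counts that left 10491 genes for testing. All 12 libraries came from ventricular cardiomyocytes of newborn Wistar rats, given as 2 days old in the labels and isolated by trypsin and a Percoll gradient. The 4 groups of 3 libraries were total RNA (input) of mock-treated cells, input of cells given phenylephrine (PE) for 24 h, and the Cpeb4 immunoprecipitate (IP) of each. No label used here gives the dose of PE or says what the mock treatment contained. Each precipitate was made with a Cpeb4 antibody from lysate of myocytes. An IP with another antibody was not analysed here, so the values do not separate RNA bound to Cpeb4 from RNA that came down for other reasons. The library kit, used on 200 ng of RNA, reads the 3′ end of transcripts.

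Nppa encodes the precursor of atrial natriuretic peptide (ANP) and Nppb that of B-type natriuretic peptide (BNP), hormones that heart muscle cells secrete. Both peptides act through a receptor guanylyl cyclase, raise cyclic GMP in their target cells, promote excretion of salt and water and relax blood vessels. The ventricle expresses both before birth and lowers them afterwards, and their return is a standard marker of cardiomyocyte hypertrophy. PE activates alpha-1 adrenergic receptors and is widely used to induce hypertrophy in cultured neonatal cardiomyocytes. Cpeb4 belongs to the cytoplasmic polyadenylation element binding proteins, which bind the 3′ ends of mRNAs and affect their poly(A) tails and translation.

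Both genes lie side by side on rat chromosome 5, on the same strand, with their start sites 12.2 kb apart and 0 genes listed between them in RefSeq (assembly GRCr8). The promoter sequences are shown because both genes were higher in every PE library than in any mock library of the same RNA pool. Of all genes tested, 5.67% had this in input, 8.61% in IP and 1.27% in both. They come from RefSeq's GRCr8 annotation, not from the Rnor_6.0 build named in the submitters' processing notes. Both are on the plus strand, at chr5:163711934-163712183 for Nppa (250 bases, up to the base before the start) and chr5:163699758-163699954 for Nppb (197 bases, ending before the first base of any listed Nppb transcript). Capitals mark matches, on either strand, to any of 5 motifs. These are the GATA motif as GATAA, the M-CAT element that TEAD factors bind as GGAATG, the core of NK2 homeobox sites as AAGTG, part of the AP-1 site as TGACTC, and the TATA box as TATAAA.
Nppa: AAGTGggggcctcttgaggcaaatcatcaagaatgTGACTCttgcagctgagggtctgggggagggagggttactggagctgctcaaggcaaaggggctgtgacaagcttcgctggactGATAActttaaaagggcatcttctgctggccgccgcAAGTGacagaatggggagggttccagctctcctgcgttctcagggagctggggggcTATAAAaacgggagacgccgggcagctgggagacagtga
Nppb: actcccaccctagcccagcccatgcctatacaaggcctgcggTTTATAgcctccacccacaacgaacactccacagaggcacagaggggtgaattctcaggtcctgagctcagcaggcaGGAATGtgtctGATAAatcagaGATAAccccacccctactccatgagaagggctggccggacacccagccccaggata

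The 250 bases before the start of Nppa held the GATA motif once, at 131 bases upstream, the NK2 core 2 times, the AP-1 part once and the TATA box once, at 39 bases upstream. The same stretch of Nppb held the GATA motif 3 times, 1 of them cut by the end of the bases printed and so not in capitals, the M-CAT element once, at 131 bases upstream, and the TATA box letters once, on the opposite strand. The GATA motif was the only one of these motifs with a match on the gene's own strand in both. Of 33469 rat promoters of this length, 23.5% held the GATA motif, 12.1% the M-CAT element, 40.6% the NK2 core, 12.6% the AP-1 part and 12.9% the TATA box, so each is common and a match is a description of the letters only.

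Library totals ran from 1423334 to 30216559 counts. The 3′ end counts are not divided by transcript length, and normalised counts (CPM) are scaled by library total and edgeR's TMM factors. Some libraries stood apart. Of 2024 genes at 20 to 50 CPM in the other 8 libraries, input mock replicate 2, input PE replicate 1 and IP mock replicate 2 had 2.96%, 2.67% and 7.02% with 0 counts, against at most 0.30% in the remaining 9 libraries. One alternative left out mock replicate 2 and PE replicate 1 in both input and IP, and so kept 8 libraries. That choice followed an earlier analysis of these data and also removed IP of PE replicate 1, which was not short of genes and held the highest level of both peptide genes among the precipitates. A further alternative, chosen after seeing the data, left out only the 3 libraries short of genes and kept 9. Identifiers of the table could be matched to 0 symbols of the RefSeq table, so the receptors, processing enzymes and regulators of the peptides, and markers of cardiomyocytes or other cells, were not analysed here.

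Nppa was abundant in every library. In mock input it stood at 3660, 4138 and 3021 CPM in replicates 1, 2 and 3, and in PE input at 25380, 7317 and 10338 CPM. The lowest PE input lay above the highest mock input, and PE replicate 1 was far above the other PE libraries. In mock IP its level was 2131, 2483 and 2047 CPM, and in PE IP it was 15830, 4670 and 6241 CPM. The precipitates thus repeated the order seen in input, again with PE replicate 1 highest. Nppa ranked between 36 and 52 among all genes of a library in mock input and between 4 and 21 in PE input. It ranked between 33 and 43 in mock IP and between 1 and 12 in PE IP, where it was the most abundant gene of replicate 1.

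Nppb was the less abundant transcript in counts. In mock input it stood at 342, 156 and 198 CPM in replicates 1, 2 and 3, and in PE input at 938, 773 and 1231 CPM. All PE inputs lay above all mock inputs, and here PE replicate 1 was the middle value. In mock IP the level was 138, 335 and 140 CPM, and in PE IP it was 3483, 659 and 1023 CPM. The groups did not overlap, with mock replicate 2 highest among mock precipitates and PE replicate 1 highest among PE precipitates. The smallest Nppb count was 147, in mock input replicate 3, a share of 0.0103% of that library (95% Wilson interval 0.00879% to 0.0121%). Reads were counted, not molecules, so such intervals cover counting error only. In IP of PE replicate 1 the share was 0.55%.

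**Figure D1:**
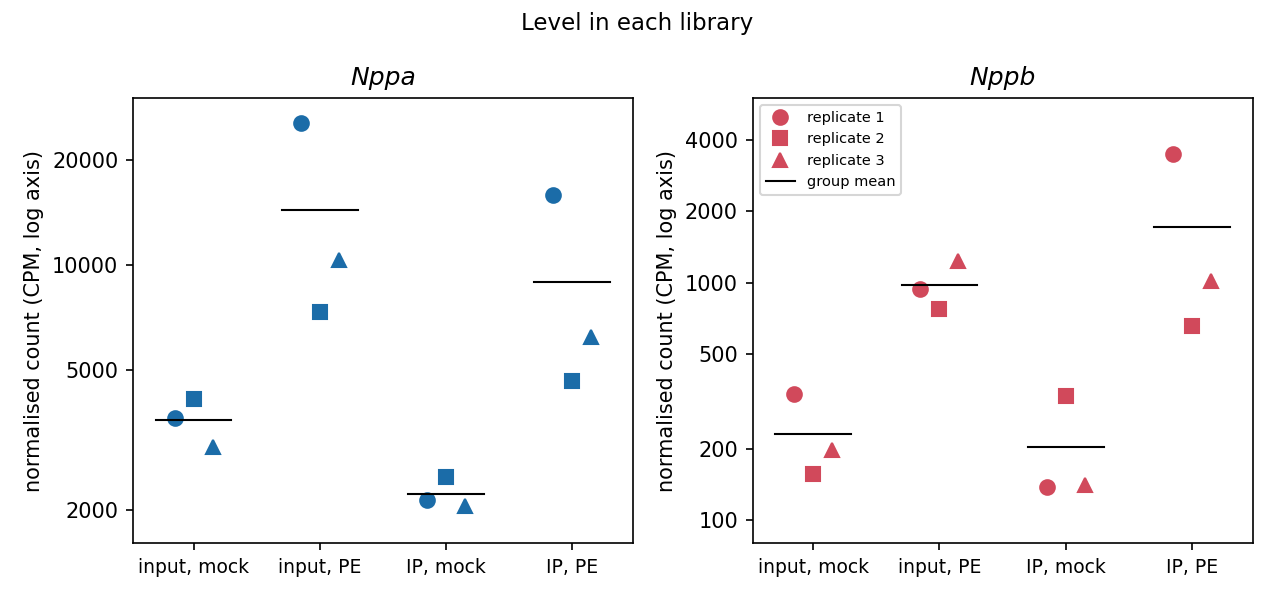
Normalised counts of Nppa (left) and Nppb (right) in each of the 12 libraries, in CPM on a log axis, by group, with symbols for the replicate number and lines for the group means. For both genes all PE libraries lie above all mock libraries of the same RNA pool, as for 1.27% of genes tested. PE replicate 1 stands highest in IP.

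Ordered by group mean, Nppa was highest in PE input (14345 ± 9676 CPM, SD, n = 3), then PE IP (8914 ± 6041), mock input (3606 ± 561) and mock IP (2220 ± 232). The ranges of PE input and PE IP overlapped, and those of every other pair of groups did not. For Nppb the order was PE IP (1722 ± 1536 CPM, SD, n = 3), PE input (981 ± 232), mock input (232 ± 97.4) and mock IP (204 ± 113). The ranges of PE IP and PE input overlapped, as did those of mock input and mock IP. The spread within groups was uneven. The coefficient of variation of Nppa was 15.5% in mock input and 10.4% in mock IP but 67.4% and 67.8% in PE input and PE IP, and that of Nppb ranged from 23.6% in PE input to 89.2% in PE IP.

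The first comparison asks what PE did to the level of both transcripts in total RNA. In input both were about 4-fold higher in PE than in mock cells. The log2 fold change was 1.99 for Nppa (SE 0.47, 95% interval 0.98 to 3.00) and 2.08 for Nppb (SE 0.57, 0.86 to 3.29). Neither passed the threshold of 0.05 over all genes (edgeR quasi-likelihood test, adjusted p = 0.635 and 0.88, unadjusted p = 0.000778 and 0.00248). In that test 0.00953% of genes, which is 1 of 10491, passed. An unadjusted p under 0.05 was held by 375 genes there, a smaller share than the 0.05 that no change in any gene would give. By p-value Nppa ranked 11 and Nppb 28 of all genes tested. Among the 1070 genes that averaged 100 CPM or more, Nppb had the 5th and Nppa the 6th highest log2 fold change, as the plot of all genes by level shows. Over all 10491 genes, the log2 fold change of Nppb ranked 776 and that of Nppa 815 from the top. The background for PE libraries lying above mock without overlap was 5.67% of genes in input. In bulk RNA, more cells that express a gene and more RNA per cell cannot be told apart.

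The call for this difference turned on the method. The DESeq2 Wald test passed both genes (adjusted p = 0.0145 for Nppa and 0.0498 for Nppb), and so did the edgeR test without a filter on low counts (adjusted p = 7.5e-05 and 0.000127). Without the filter, p-values followed a normal distribution of the log2 fold change over its SE, as those of the DESeq2 Wald test do by design. The edgeR p-values without a filter rest almost wholly on a spread pooled over genes, not on each gene's own spread between libraries. In the 8 libraries outside mock replicate 2 and PE replicate 1, both passed as well, with log2 fold changes of 1.39 (SE 0.22) and 1.87 (SE 0.30) and an adjusted p of 0.0137 each in edgeR. The 9 libraries that keep IP of PE replicate 1 gave nearly the same log2 fold changes, 1.40 (SE 0.45) and 1.88 (SE 0.66), and neither passed (edgeR adjusted p = 0.913 and 1). Over 21 alternatives the log2 fold change lay between 1.29 and 2.34 for Nppa and between 1.86 and 2.47 for Nppb, with 3 of them past the threshold for each gene. Those that left out 1 IP library could hardly move the value in input, and Nppa stayed at 1.99. PE input replicate 1 moved Nppa most: without it Nppa had a log2 fold change of 1.29 (edgeR adjusted p = 1) and Nppb one of 2.11.

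The same comparison in the Cpeb4 precipitates gave higher levels in PE cells for both genes. The log2 fold change was 2.01 for Nppa (SE 0.47, 95% interval 1.00 to 3.01) and 3.07 for Nppb (SE 0.59, 1.81 to 4.33), a fold of 4.01 and 8.42. Neither passed over all genes (edgeR adjusted p = 0.43 and 0.182, unadjusted p = 0.000737 and 0.000122), where again 0.00953% of genes passed. Nppb had the highest and Nppa the 4th highest log2 fold change of the 1070 genes with at least 100 CPM. Over all genes tested, the log2 fold change of Nppb ranked 343 and that of Nppa 757 from the top. Of all genes, 8.61% had all PE precipitates above all mock precipitates, and 1.27%, or 133 genes, had this in input and in IP, as both peptide genes did. Of these 133 genes, 33 averaged at least 100 CPM, and 31 had log2 fold changes at least as high as those of Nppa in both pools. A mean level at least as high as that of Nppb was held by 9 of them. Each of these counts includes both members.

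In IP, too, the call turned on the method. DESeq2 gave an adjusted p of 0.0103 for Nppa and 3.1e-05 for Nppb, and edgeR without a filter 4.79e-05 and 1.35e-10. The values of DESeq2 and those without a filter carry the limits stated for input. The 8 libraries gave log2 fold changes of 1.37 (SE 0.22, edgeR adjusted p = 0.0103) for Nppa and 2.58 (SE 0.31, adjusted p = 0.000764) for Nppb. The 9 libraries gave 2.07 (SE 0.43) and 3.61 (SE 0.68), and neither passed (edgeR adjusted p = 0.114 and 0.112). Leaving out IP of PE replicate 1 alone lowered the log2 fold change to 1.30 for Nppa and 2.04 for Nppb, and neither passed (edgeR adjusted p = 0.832 and 0.557). Over 21 alternatives the log2 fold change in IP lay between 1.30 and 2.31 for Nppa and between 2.04 and 3.63 for Nppb. As PE and mock precipitates did not overlap, leaving out 1 library could hardly turn the sign. Leaving out any 1 input library left Nppa at 2.01. The plot of alternatives shows the values by setting.

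**Figure D2:**
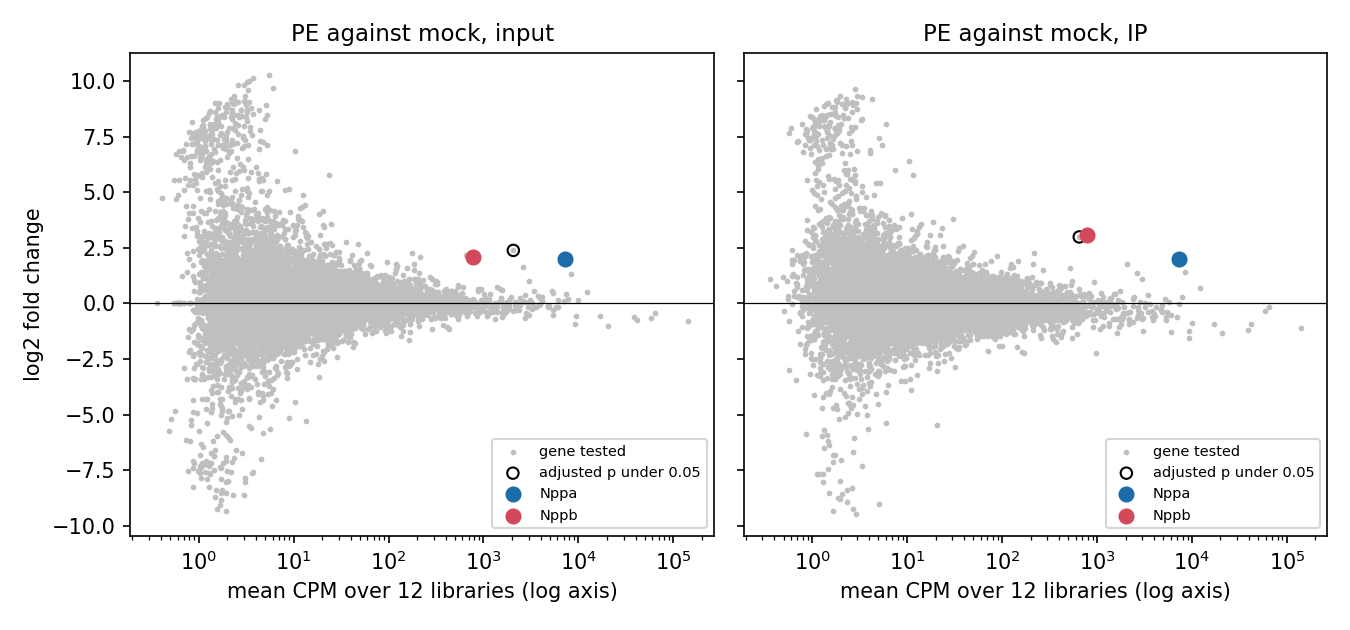
Log2 fold change of PE against mock in input (left) and IP (right) against mean level over the 12 libraries, for the 10491 genes tested (grey), those past an adjusted p of 0.05 (open circles, 1 in each panel), Nppa and Nppb. Both peptide genes lie above most genes of their level, at log2 fold changes of 1.99 and 2.08 in input and 2.01 and 3.07 in IP.

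**Figure D3:**
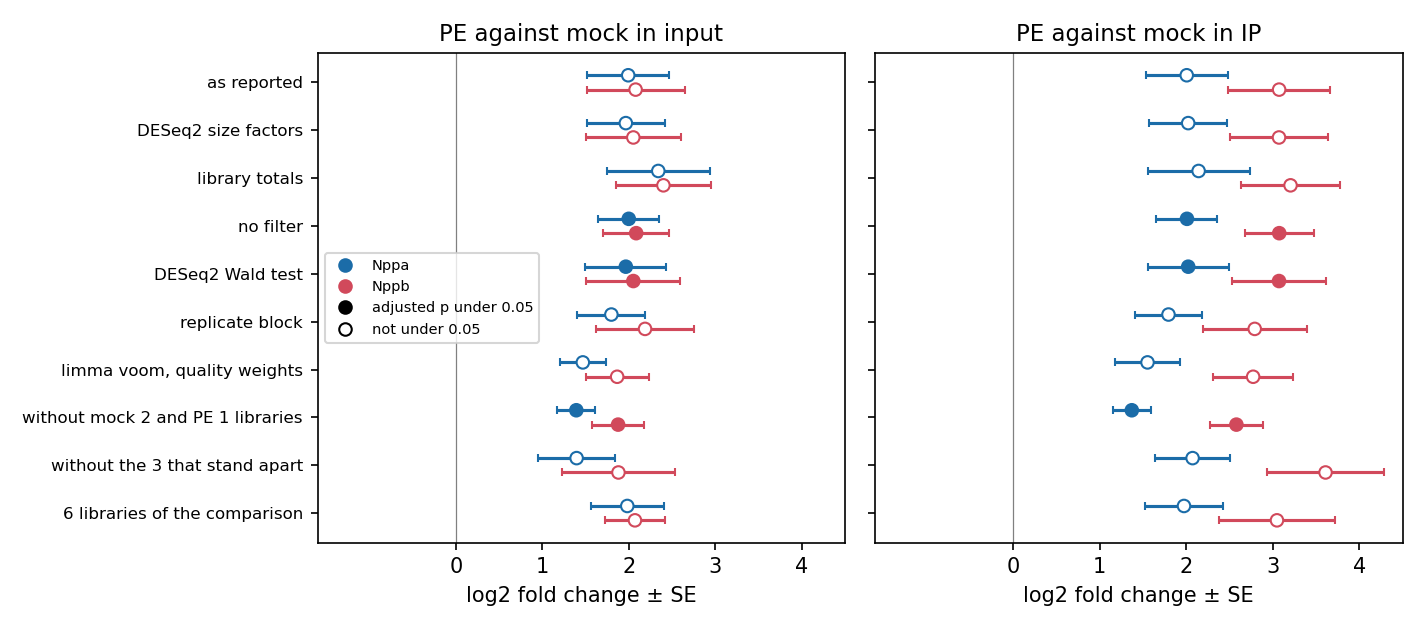
Log2 fold change of PE against mock (points) with its SE (bars) in input and in IP under the reported fit and 9 alternatives, filled where the adjusted p was under 0.05. Points are filled without a filter, with DESeq2 and in the 8 libraries outside mock replicate 2 and PE replicate 1, and every point lies above 0.

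The precipitates were then compared with the input of the same treatment, which asks whether either transcript took a larger or smaller place in the Cpeb4 precipitate than in total RNA. Nppa was lower in IP than in input in mock cells, with a log2 fold change of -0.70 (SE 0.46, 95% interval -1.68 to 0.28), and by nearly the same amount in PE cells, at -0.69 (SE 0.46, -1.66 to 0.29). Neither value passed (edgeR adjusted p = 0.662 and 0.684). For Nppb the log2 fold change was -0.18 (SE 0.55, -1.35 to 0.98) in mock and 0.81 (SE 0.55, -0.36 to 1.98) in PE cells, and neither passed (edgeR adjusted p = 0.985 and 0.69). In these tests 0.743% of genes passed in mock cells and 2.11% in PE cells, either direction counted. A block for replicate number within treatment raised the genes that passed in mock cells from 17 higher and 61 lower to 95 and 177. With that block Nppa had an edgeR adjusted p of 0.0924 in mock and 0.0726 in PE cells, with an SE of 0.19 in each. All mock precipitates lay below all mock inputs for Nppa, as they did for 7.9% of all genes.

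Except for Nppb in PE cells, these signs depend on the scaling. In input libraries 5 to 55 genes made up 50% of the counts, and in precipitates 157 to 282 genes. TMM factors were 0.49 to 0.96 in input and 1.40 to 1.59 in IP. A log2 fold change on the TMM scale is relative to most genes, and scaling by library totals alone shifted the median of all genes by 1.21 in mock and 1.10 in PE cells. Scaled by totals, which do not correct for such a difference in composition, Nppa was higher in IP. Its log2 values were 0.44 in mock and 0.25 in PE cells, and those of Nppb were 1.11 and 1.92. Of these, Nppb in PE cells passed (edgeR adjusted p = 0.044). As shares of all counts, Nppa held 0.233% ± 0.113 (SD, n = 3) of mock input and 0.317% ± 0.0398 of mock IP, and 1.18% ± 1.08 of PE input and 1.40% ± 0.96 of PE IP. Nppb held 0.0136% ± 0.00319 of mock input and 0.0294% ± 0.0169 of mock IP, and 0.0718% ± 0.0171 of PE input and 0.271% ± 0.244 of PE IP.

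The positive value of Nppb in PE cells rested on IP of PE replicate 1. Without that library its log2 fold change of IP against input was -0.22, and in the 8 libraries it was -0.29 (edgeR adjusted p = 0.977 and 0.666). For Nppa in PE cells the value was -0.01 without input PE replicate 1 and -1.39 without IP of PE replicate 1. In the 8 libraries it was -0.73 (SE 0.22) and passed (edgeR adjusted p = 0.0408), with PE inputs at 7317 and 10338 CPM and PE precipitates at 4670 and 6241 CPM. In the 9 libraries the PE value was -0.05 for Nppa and 0.71 for Nppb (edgeR adjusted p = 0.98 and 0.614).

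The value of Nppb near 0 in mock cells rested on mock replicate 2. In the 8 libraries its log2 fold change of IP against input was -0.99 (SE 0.29, edgeR adjusted p = 0.0629, unadjusted p = 0.00345). In the 9 libraries it was -1.02 (SE 0.64, adjusted p = 0.578), and limma voom with quality weights gave -0.85 (adjusted p = 0.364). The mock libraries other than replicate 2 held Nppb at 342 and 198 CPM in input and at 138 and 140 CPM in IP. Replicate 2 was lowest in input, at 156 CPM, and highest in IP, at 335 CPM, and with it the groups overlapped.

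The change of IP enrichment with PE, the difference between both treatments' log2 fold changes of IP against input, was 0.01 for Nppa (SE 0.64, 95% interval -1.36 to 1.39) and 1.00 for Nppb (SE 0.77, -0.66 to 2.65). Neither passed (edgeR adjusted p = 1 each), 0% of genes did, and 2 passed in DESeq2. In edgeR 271 of 10491 genes had an unadjusted p under 0.05, a smaller share than the 0.05 that no change in any gene would give. The intervals allow a change of more than 2-fold in either direction for Nppa and of up to 2.65 on the log2 scale for Nppb. Without IP of PE replicate 1 the value of Nppb was -0.04 and that of Nppa -0.69. In the 8 libraries the values were 0.70 for Nppb and -0.02 for Nppa (edgeR adjusted p = 0.772 and 1), and in the 9 libraries 1.73 and 0.68 (adjusted p = 1 each).

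**Figure D4:**
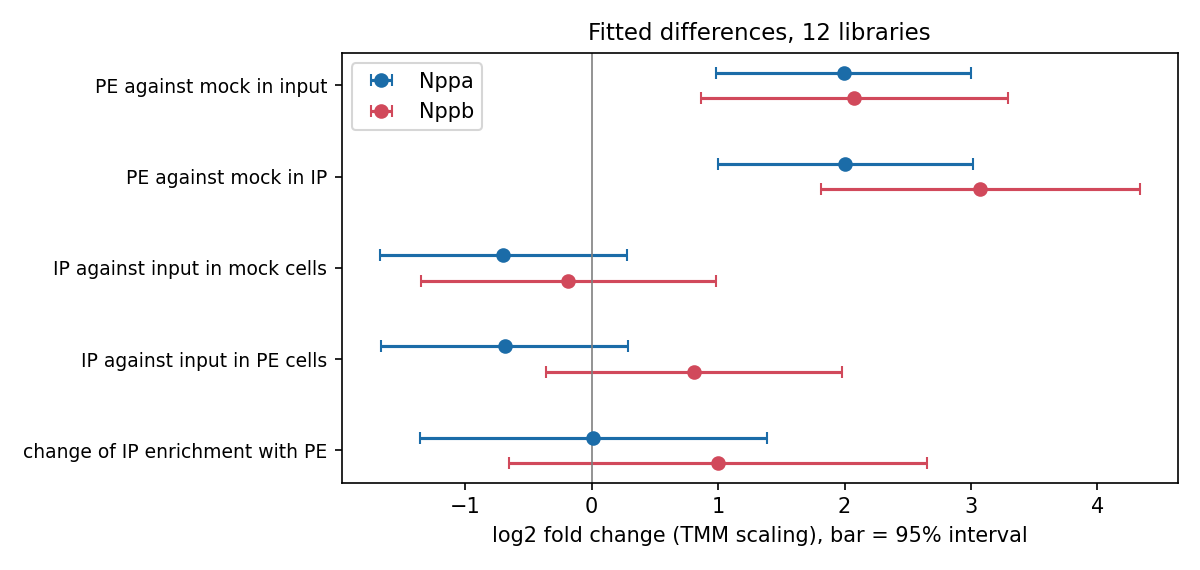
Log2 fold changes of Nppa and Nppb in the 5 comparisons from the fit of 12 libraries, on the TMM scale, with 95% intervals as bars. The intervals of PE against mock lie above 0, and those of IP against input and of the change of IP enrichment all span 0.

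The ratio of Nppa to Nppb counts within a library does not depend on how libraries are scaled. Only its differences between libraries are read here, since a gene's own yield in 3′ end counting is unknown. In mock input Nppa had 10.7, 26.4 and 15.3 counts per Nppb count in replicates 1, 2 and 3, and in PE input 27.1, 9.46 and 8.40. Mock replicate 2 and PE replicate 1 held the 2 highest ratios, and the groups overlapped. In mock IP the ratio was 15.5, 7.41 and 14.6, and in PE IP it was 4.55, 7.08 and 6.10. Every PE precipitate had a lower ratio than any mock precipitate and than any PE input, so Nppb took its largest place beside Nppa in the precipitates of PE cells. The narrowest gap was between IP mock replicate 2 and IP PE replicate 2.

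On the log2 scale the mean ratio was lower by 1.03 in PE than in mock precipitates, a fold of 0.49, and by 1.15 in PE precipitates than in PE input, a fold of 0.45. Two-sided exact permutation tests gave p = 0.1 for each, the smallest value possible with 3 libraries against 3 (0.167 after Benjamini-Hochberg adjustment over 5 comparisons). In input the PE and mock means differed by -0.34 (exact permutation p = 0.6), and in mock cells IP and input by -0.46 (exact permutation p = 0.5), each 0.6 after adjustment. Over both treatments, IP was lower than input by 0.80 (exact permutation p = 0.065 with labels permuted within treatment, adjusted 0.167). None of these differences passed the threshold. In the 8 libraries outside mock replicate 2 and PE replicate 1, the difference over both treatments was -0.10 and that between PE and mock precipitates was -1.19. PE precipitates then differed from PE input by -0.44, and by -0.62 when input PE replicate 1 alone was left out. In the 9 libraries the difference over both treatments was -0.19. In mock cells the sign of IP against input turned, to 0.23, in both sets of libraries.

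**Figure D5:**
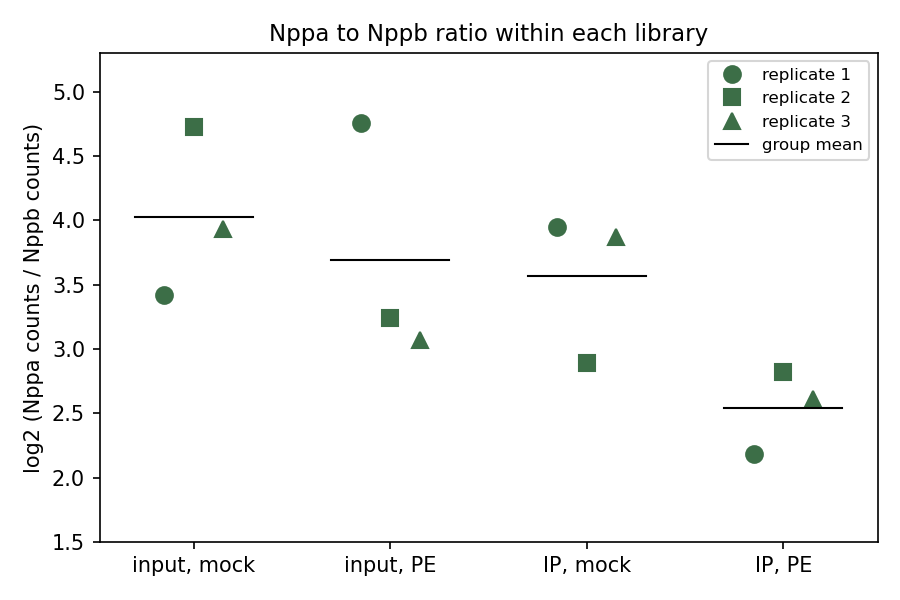
Log2 of Nppa counts divided by Nppb counts in each library, by group, with symbols for the replicate number and lines for the group means. The PE precipitates lie between 2.18 and 2.82, below all mock precipitates (2.89 to 3.95) and all PE inputs (3.07 to 4.76).

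By likeness of pattern, measured as the Pearson correlation of log2 CPM over the 12 libraries among 5864 other genes that averaged 10 CPM or more, the 2 members were near each other (r = 0.838). Nppb was at rank 10 for Nppa, and Nppa at rank 13 for Nppb. Libraries of a group share treatment and RNA pool but differ in depth, and r is a description with no test. The gene most like Nppa was ENSRNOG00000014327 (r = 0.94), which had means of 1445 CPM in mock input, 4561 in PE input, 1236 in mock IP and 3215 in PE IP. The gene most like Nppb was ENSRNOG00000003546 (r = 0.922), with means of 57.5, 185, 56.1 and 194 CPM in the same groups. Both were higher in the PE groups of each pool by mean, which largely follows from picking them by likeness over these same libraries. Neither has a symbol in the files used here. ENSRNOG00000014327 had an adjusted p of 0.0663 for PE against mock in input (edgeR), from the same libraries that picked it.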

How the data were processed

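The deposited table holds raw counts per Ensembl rat gene, made by the authors from 3′ end libraries of 12 samples. The tools cutadapt 2.5, STAR 2.7 (an aligner), featureCounts 1.6.4 (a counter), DESeq2 and the build Rnor_6.0 are listed in the submitters' processing notes, with no options, strand setting or filters. Reads near the end of a transcript only are counted, so a shifted poly(A) site could move a gene's count.

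Columns were matched to samples by type, treatment and replicate number, and 32883 blank lines were skipped. Counts were fitted with edgeR 4.0.16 (R 4.3.3; TMM, filterByExpr, robust quasi-likelihood F-test) as 4 group means, with Benjamini-Hochberg adjustment over 10491 genes and a threshold of 0.05. Intervals are at 95%, and the SE is the log2 fold change divided by the square root of F. Ratios were compared by exact permutation over libraries. Log CPM for likeness used a prior count of 1. The edgeR fit was tested on simulated counts, with changes larger than those reported here planted in PE input only. Differences between IP and input were not simulated. The permutation step was tested on small examples with known answers.

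Alternatives were other scalings, no filter, DESeq2 1.42.0, limma 3.58.1 voom, 6-library fits, replicate blocks and left-out libraries, of which the set of 9 was chosen after seeing the data. Members, motifs, lists and alternatives were chosen with earlier results of these data known. The gene lists and cell type markers by symbol could not be run. The rule for other named genes took the most alike by correlation, limited to 2 identifiers as no symbols were at hand.

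Deviations of input and IP libraries with the same number correlated at 0.157, 0.243 and 0.103 in mock and 0.186, 0.0139 and 0.194 in PE cells. These values do not settle whether the numbers pair libraries in either treatment, and the main fit used no pairing. IP of mock replicate 3 correlated with input replicate 1 at 0.102, nearly as with its own input. With the block within treatment, the SE of Nppa for IP against input was 0.19 in mock and in PE cells, against 0.46 without it. The unadjusted edgeR p was 0.00318 in mock and 0.00339 in PE cells with the block, against 0.147 and 0.154 without it. In the column names, input and IP of the same treatment and number share a letter, A to F, which may mean a shared lysate. The labels do not state one, and nothing in them says that replicates were separate cultures. The p-values thus reflect the spread of these libraries alone, and that spread may be technical.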

Additional observations from a re-analysis of the deposited data

How the results depend on the processing

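Depth limits Nppb most, with 147 counts in the shallowest library, while the spread between libraries sets the intervals. For PE against mock in input, log2 fold changes past the threshold were 2.00 (Nppa) and 2.08 (Nppb) without a filter, 1.96 and 2.05 with DESeq2, and 1.39 and 1.87 without mock replicate 2 and PE replicate 1. The IP values in that order were 2.01 and 3.07, 2.02 and 3.07, and 1.37 and 2.58. With 1 library omitted at a time the ranges were 1.29 to 2.31 and 1.86 to 2.47 in input, and 1.30 to 2.31 and 2.04 to 3.63 in IP.

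For IP against input, library totals gave 0.44 (Nppa) and 1.11 (Nppb) in mock and 0.25 and 1.92 in PE cells, and -0.20 for the change of enrichment of Nppa, by construction without correction for composition. Without mock replicate 2 and PE replicate 1, values were -0.73 (Nppa, PE), -0.29 (Nppb, PE), -0.021 (Nppa, change) and 0.23 (ratio, mock, also in the 9 libraries). With 1 library omitted, ranges were -0.81 to -0.59 (Nppa) and -0.74 to 0.21 (Nppb) in mock, -1.39 to -0.01 and -0.22 to 1.20 in PE cells, -0.69 to 0.72 and -0.037 to 1.55 for the change, and, for the ratio of PE to mock input, -0.87 to 0.014. The replicate block across groups turned the change for Nppa to -0.0029 and altered no call of either gene. Mock and PE libraries of the same number correlated at -0.217 to 0.116. The block within treatment gave Nppa -0.69 in PE cells (edgeR adjusted p = 0.0726) and 128 genes higher and 293 lower there. There 2 of 3 IP libraries, and in mock 3 of 3, correlated best with the input of their number. Other causes were not tested.

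Genes passing as higher and lower (as reported 1 and 0 in input, 1 and 0 in IP, 17 and 61 in mock, 48 and 173 in PE) were 14 and 1, 17 and 13, 156 and 191, 158 and 265 without a filter, and 18 and 3, 28 and 13, 126 and 281, 200 and 383 with DESeq2. Without mock replicate 2 and PE replicate 1 they were 8 and 0, 19 and 17, 164 and 344, 357 and 621, in the 9 libraries 3 and 0, 8 and 2, 76 and 201, 328 and 541, and with voom 5 and 0, 3 and 1, 77 and 215, 236 and 362. For IP against input, scaling by totals made it 842 and 10, and 641 and 24, and 6-library fits 0 and 13, and 30 and 107. With 1 library omitted they were 0 to 4 and 0 in input, 1 and 0 in IP, from 0 to 19 higher with 0 to 71 lower (mock), and from 3 to 83 higher with 60 to 249 lower (PE). The change of enrichment had 1 lower gene without a filter and 2 with DESeq2.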
